A study of Danio rerio with 20 samples.

Results

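The normal larval liver of zebrafish was described from 5 libraries of messenger RNA, the unexposed wild-type samples among 20 in the series. They were taken as all samples labelled wild type of the TAB5 strain with 0 mM inorganic arsenic, and all 5 carried counts. For each library 12 to 15 livers were pooled, microdissected at about 119 h after fertilization from larvae of 5 days that carried no engineered allele and received no agent. The larvae had been kept at 20 embryos per well. No other genotype, exposure or age enters the values below, and the unit of replication is the pool, called pool 1 to pool 5 by the number that ends its title. That number follows the letters cl, which the labels do not explain. Whether it marks separate spawnings (clutches) is not stated, so the spread between pools may be partly technical.

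Hepatocytes make up most of the liver and secrete the bulk of plasma proteins, among them apolipoproteins, iron and vitamin carriers, clotting factors, complement and protease inhibitors. They also handle glucose, amino acids, lipids, bile acids and foreign compounds. In zebrafish the organ is functional by the end of the first week, when the larva passes from yolk to food. Bile duct cells, sinusoidal endothelium, stellate cells and blood cells share the organ, and pancreas and gut lie next to it. In pooled tissue, fewer cells of a type and less RNA per cell cannot be told apart.

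Library totals lay between 28288786 and 39645961 counts. Levels are given as CPM, gene counts scaled to a library total of 1000000, so that 10000 CPM are 1% of counts. Transcript lengths were not used here, and a long transcript gives more fragments per molecule, so ranks between genes are ranks of counts and not of molecules. Of 32105 gene identifiers, 16699 had a count in every pool and 8833 had none in any. Mean levels of at least 1, 10, 100, 1000 and 10000 CPM were reached by 11588, 5093, 949, 157 and 9 genes. Pearson correlations between pools across the 11588 genes, on log2(CPM + 1), were 0.964 to 0.988, with pools 3 and 5 most alike and pools 1 and 4 least alike. These correlations are across genes, which are not independent replicates.

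The tissue label was checked against marker lists of 16 cell types and tissues. Hepatocyte markers, 21 genes, summed to 230870.0, 234765, 233254, 233909 and 231349 CPM in pools 1 to 5. Those sums were 23.1% to 23.5% of counts and differed little between pools. Most of each sum came from apoa1b, apoa2 and tfa, so it says little of the other members. Between pools apoa1b had a 1.09-fold range, apobb.1 2.29-fold and apoa1a 17.8-fold. Among them CPS1, the first enzyme of the mammalian urea cycle, had no count in any pool, which at 3 counts allows at most 0.106 CPM in the shallowest library. Of biliary markers, summing to 1849 to 2133 CPM, krt8 and ANXA4 led with 752 ± 58.6 and 737 ± 35.4 CPM (SD, n = 5). SOX9 (ENSDARG00000043923), a duct transcription factor, averaged 12.7 CPM. The chloride channel gene CFTR averaged 0.0050 CPM.

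Endothelial markers summed to 173 to 254 CPM, led by the receptor gene kdrl at 66.8 ± 8.92 and the junction gene cdh5 at 29.2 ± 6.72 CPM. Stellate and mesenchymal markers summed to 105 to 143 CPM and had collagen gene col6a1 (45.8 ± 13.4 CPM) at their head. Lymphocyte and thrombocyte markers together reached 4.43 to 8.07 CPM, muscle markers 10.0 to 18.1, nervous system and eye markers 2.45 to 4.18, and cartilage, bone and notochord markers 3.96 to 6.88. These 4 lists were therefore each below 20 CPM in every pool. The endocrine pancreas list stayed at or under 1.22 CPM, with both insulin genes of the list (ins and insb) without a count.

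In the lists of erythrocytes, macrophages, exocrine pancreas and epidermis, the highest pool was 2.94-fold to 7.63-fold above the lowest. Erythrocyte markers summed to 162, 134, 113, 149 and 55.0 CPM, lowest in pool 5, and most of this was the embryonic globin gene hbae3. Macrophage markers summed to 444, 116, 129, 108 and 125 CPM, and most of the excess of pool 1 was 1 member, MFAP4 (ENSDARG00000090557), while cd68 averaged 102 ± 10.0 CPM with no pool apart. Exocrine pancreas markers summed to 23.5, 137, 17.96, 22.7 and 73.1 CPM, highest in pools 2 and 5, with the trypsinogen gene prss1 at 9.69, 34.0, 5.82, 5.11 and 21.2 CPM. Epidermal markers summed to 43.6, 76.6, 58.7, 227 and 48.6 CPM, highest in pool 4, where the keratin gene krt4 stood at 115 CPM against 3.14 to 18.6 elsewhere. Intestinal markers, with a 1.49-fold range, summed to 4030.3, 4649, 5299, 5991 and 4618 CPM, of which apoa4b.1 (2950.3 ± 735) and RBP2 (ENSDARG00000093774, 1562 ± 94.4) made up most. The gut brush-border genes VIL1 and SLC15A1 (ENSDARG00000100315) averaged 0.0765 and 0.204 CPM. Kidney and swim bladder markers, nearly all from the phosphate carrier SLC20A1 (ENSDARG00000010641), summed to 286, 350.4, 367, 366 and 375 CPM.

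Genes of a few secreted proteins held a large share of the counts. The most abundant transcript, apoa1b, which encodes the main protein of high-density lipoprotein, had 93138, 94231, 86135, 87691 and 92005 CPM in pools 1 to 5 and held 9.06% ± 0.354 (SD, n = 5) of all counts. It was first in every pool, and the pools differed by 1.09-fold between lowest and highest. Second in every pool was apoa2, another high-density lipoprotein protein, at 39838, 41608, 46852, 44836 and 41858 CPM. Rank 3 in every pool was tfa, the iron carrier transferrin, at 27117, 28047, 33225, 30514 and 33106 CPM. The fetuin gene fetub, whose human relative is a plasma protease inhibitor, held rank 4 in every pool at 20353, 20589.6, 22372, 21098 and 25548 CPM.

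**Figure D1:**
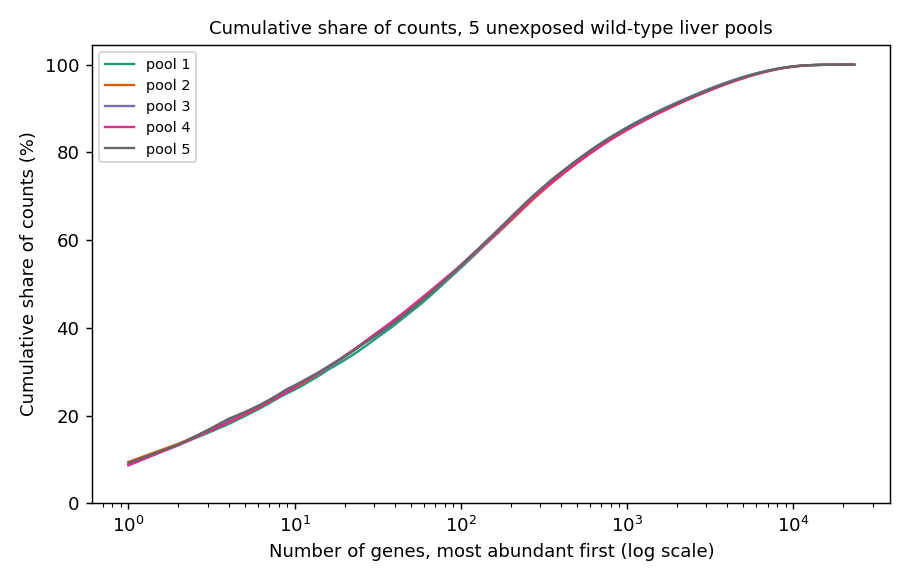
Cumulative share of counts in percent (vertical axis) against the number of genes, most abundant first, on a log scale, with 1 line per pool. The 5 lines lie almost on one another. With genes ordered within each pool, as drawn, the top 10 held 26.4% and the top 100 held 54.0% of counts on average. The 53.8% in the text is for the top 100 genes by mean level.

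The top 3 genes together held 16.4% ± 0.273 of counts, the top 10 genes 26.4% ± 0.377, the top 20 genes 33.1% ± 0.532, the top 100 genes 53.8% ± 0.316 and the top 1000 genes 85.3% ± 0.267 (SD, n = 5). Ordered by mean level, 77 genes held 50% of counts and 1746 genes held 90%. Pool 1 had the lowest share in the top 20 genes, 32.2%, against 33.3% to 33.5% in the other 4 pools. Counting error is small beside this spread, the widest exact binomial 95% interval of these shares being 0.0368 percentage points. The composition at the top was shared: 8 genes were in the top 10 of every pool, of 12 that were in the top 10 of any. Of the top 100, 82 genes were common to the 5 pools, of 118 in any.

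Below the first 4 genes came a mixture of mitochondrial, hepatocyte and translation transcripts. The mitochondrial gene MT-CO1, a subunit of cytochrome oxidase, held rank 5 at 16774 ± 1670.2 CPM. The liver fatty acid binding protein gene fabp10a, the usual hepatocyte reporter in zebrafish, held rank 6 at 18027, 14538, 15754, 13991 and 13813 CPM and was highest in pool 1. The carboxylesterase gene ces2a averaged 13103 ± 1321 CPM. The elongation factor gene eef1a1l1 (10382 ± 1298 CPM) and MT-CO3 (9392 ± 881) were also in the top 10.

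Ranks 11 to 20 held 2 copies of the antitrypsin gene, serpina1 at 8122 ± 330.1 and serpina1l at 5546 ± 582 CPM, which can share reads. AGXT (ENSDARG00000018478), a liver aminotransferase that removes glyoxylate, stood at 7797 ± 465 CPM. Apolipoprotein B gene apobb.1, the structural protein of very-low-density lipoprotein, had 4708, 7496, 7199, 10793 and 6649.9 CPM. It was lowest in pool 1 and highest in pool 4, a 2.29-fold range that was wide for a gene of this rank, and its own rank ran from 9 to 24 between pools. RBP4, the plasma retinol carrier, had 7503, 8577, 6449, 7770.4 and 5449 CPM and was lowest in pool 5. GAPDH of glycolysis (6826 ± 791 CPM) and apoc1, a small apolipoprotein (6255 ± 620.1), followed.

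**Figure D2:**
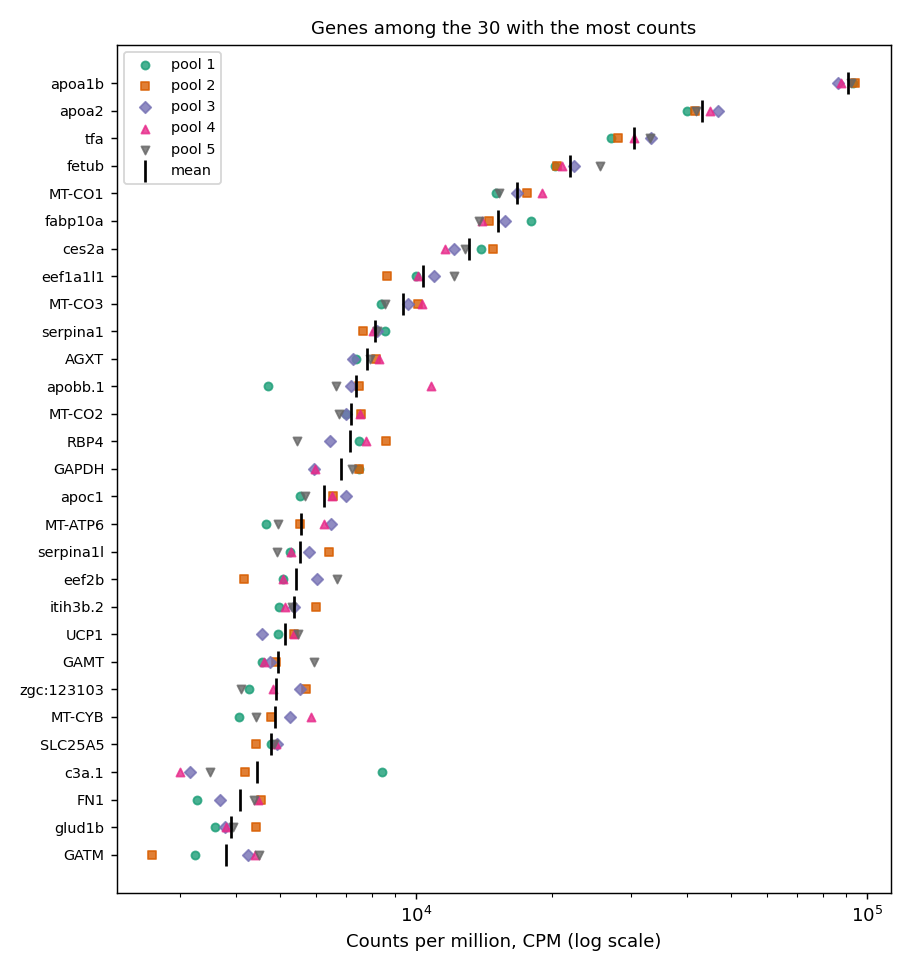
CPM on a log scale (horizontal axis) of genes among the 30 with the highest mean level, 1 row per gene, with 1 point per pool and a bar at the mean. Points of a gene mostly overlap, apoa1b lying at 86135 to 94231, while c3a.1 and apobb.1 spread from 2999 to 8402 and from 4708 to 10793.

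Genes at ranks 21 to 30 included itih3b.2, a heavy chain of a plasma protease inhibitor, at 5366 ± 394 CPM and UCP1, an uncoupling protein of the inner mitochondrial membrane, at 5144 ± 384. UCP1 is known in mammals from brown fat, and here it ranged only from 4558 to 5477 CPM. Both enzymes of creatine synthesis were in this range. GAMT, the methyltransferase of the second step, had 4560.4, 4893, 4759, 4616 and 5945 CPM and GATM, the amidinotransferase of the first step, had 3247, 2608, 4252, 4408 and 4498 CPM. GAMT was highest in pool 5, and GATM was lower in pools 1 and 2 than in the other 3. Also at these ranks were the nucleotide carrier SLC25A5 (4774 ± 203 CPM), the fibronectin gene FN1 (ENSDARG00000006526, 4075 ± 564) and glud1b, a glutamate dehydrogenase (3906 ± 311). The gene zgc:123103 (4892 ± 729 CPM) has no functional name in the table used.

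Genes were also summed by function in 34 lists, with each gene counted once. The 6 lists of plasma proteins (apolipoproteins, carriers, protease inhibitors, coagulation, complement and acute phase), 173 genes, together held 30.4% ± 0.175 (SD, n = 5) of counts. That sum was steadier between pools than several of its parts. Genes in none of the lists held 28.9% ± 0.490.

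Apolipoproteins held 15.7% ± 0.416 of counts, the largest share of any list, of which apoa1b and apoa2 were the greater part. Plasma carriers and other secreted proteins held 7.88% ± 0.307. Beside tfa, fetub and RBP4 they included the vitamin D carrier GC (2889.8 ± 247 CPM) and ambp (2094 ± 123), the precursor of a small lipid-binding plasma protein. Protease inhibitors held 1.72% ± 0.0662, with a2ml, related to alpha-2-macroglobulin, next after the antitrypsin copies at 3122 ± 526 CPM. Coagulation and fibrinolysis genes held 2.36% ± 0.100. The 3 fibrinogen chains fga, FGB and FGG stood at 3349 ± 340.1, 2638 ± 376 and 2286 ± 202 CPM, and plasminogen (PLG), the precursor of the clot-dissolving protease, at 2951 ± 150.5. Complement genes held 3.23, 2.47, 2.11, 2.06 and 2.13% of counts in pools 1 to 5, with pool 1 above the others. Their leading members were the C3 gene c3a.1, the pore-forming c9 (3396 ± 821 CPM) and the factor H relative cfhl4 (2216 ± 251).

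**Figure D3:**
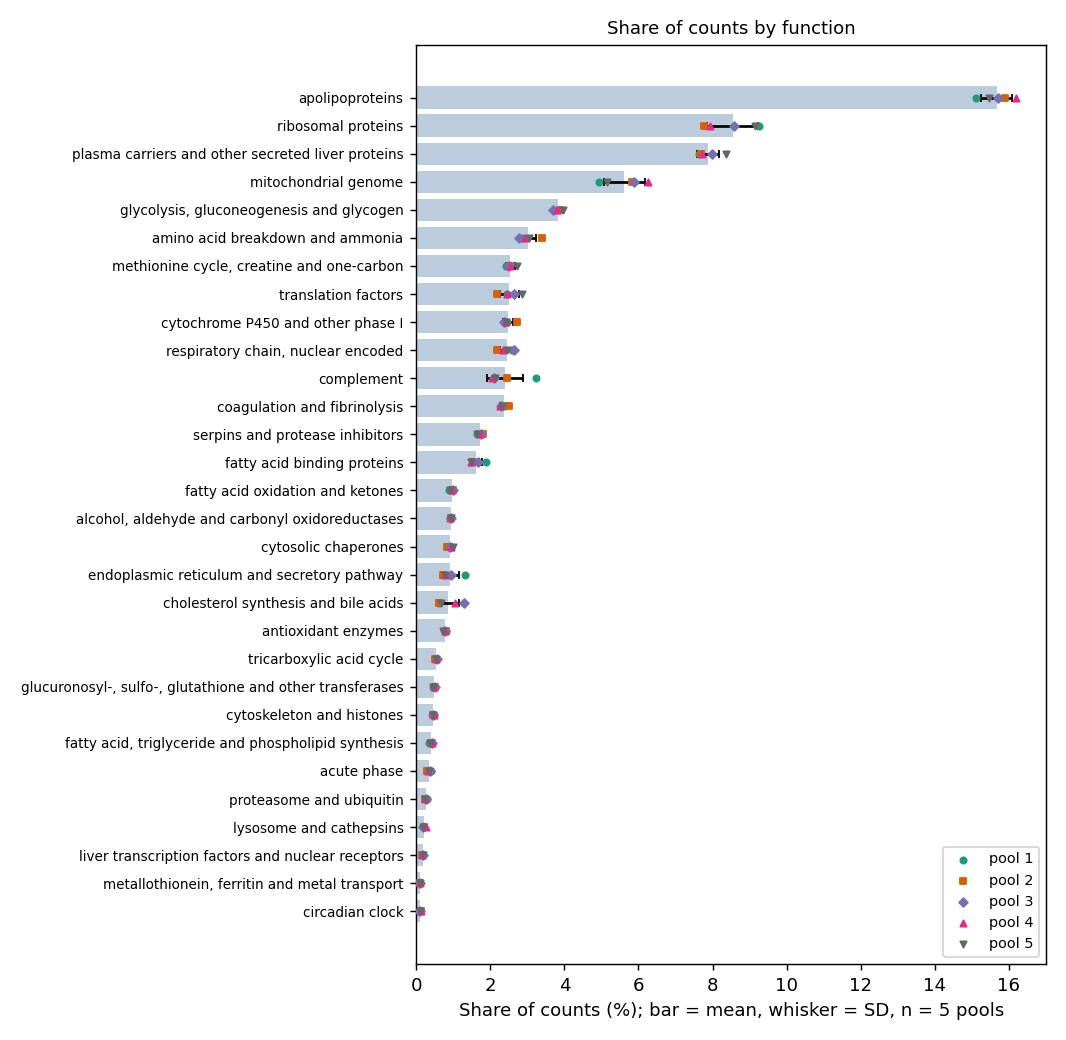
Share of counts in percent (horizontal axis) of each functional list with a mean share of at least 0.1%. Bars are means, whiskers are SD over 5 pools and points are single pools; apolipoproteins led with 15.7%, and pool 1 lies above the other pools for complement at 3.23%.

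Metabolic genes followed. Glycolysis, gluconeogenesis and glycogen genes held 3.83% ± 0.104 of counts. Pyruvate kinase (PKLR), the last step of glycolysis, had 2769.8, 1722, 2789.6, 3497 and 3162 CPM and was lowest in pool 2. PCK1, the control enzyme of gluconeogenesis, had 2473, 2480.0, 2548, 1555 and 2579 CPM and was low only in pool 4. Genes of amino acid breakdown held 3.01% ± 0.236, with the tyrosine enzyme hpda at 2383 ± 299 and the tryptophan enzyme TDO2 at 2353 ± 252 CPM. The tyrosine aminotransferase TAT had 1465, 2482, 642, 1549 and 1042 CPM, highest in pool 2 and lowest in pool 3. Methionine cycle, creatine and one-carbon genes held 2.54% ± 0.113. BHMT, which remakes methionine with betaine, averaged 3497 ± 582 CPM, AHCY, which clears S-adenosylhomocysteine, 3407 ± 194, and MAT1A, the liver enzyme that makes S-adenosylmethionine, 2247 ± 194. AS3MT, which uses that methyl donor to methylate arsenic, was counted at 83.8, 98.6, 85.0, 88.3 and 94.1 CPM and had a coefficient of variation (CV, SD over mean) of 6.95%.

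Cytochrome P450 and other phase I genes held 2.48% ± 0.140 of counts, of which ces2a was the greater part. Pool 2 was highest at 2.73%, against 2.39% to 2.45%. After ces2a came cyp2ad2 at 983, 1235, 1695, 1574 and 1864 CPM and CYP24A1, which inactivates vitamin D, at 1422, 1141, 1072, 2263 and 715 CPM. Conjugating enzymes held 0.484% ± 0.0288 and antioxidant enzymes 0.777% ± 0.0341, the latter led by gpx4a, a lipid peroxide reductase (2711 ± 335 CPM), and peroxiredoxin PRDX1 (ENSDARG00000025350, 1312 ± 65.3). Fatty acid binding proteins held 1.62% ± 0.173, nearly all from fabp10a, since FABP3 and FABP2 averaged 711 ± 47.6 and 209 ± 25.2 CPM. Fatty acid oxidation and ketone genes held 0.957% ± 0.0444, with scp2a (1147 ± 96.2 CPM), a peroxisomal thiolase and sterol carrier, first. Genes of fatty acid, triglyceride and phospholipid synthesis held 0.394% ± 0.0393.

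Ribosomal protein genes held 9.27, 7.78, 8.59, 7.92 and 9.14% of counts in pools 1 to 5, a mean of 8.54% ± 0.679 (SD, n = 5), higher in pools 1 and 5 than in pools 2 and 4. Of 82 genes averaging 1 CPM or more, 58 were highest in pool 1 and 53 lowest in pool 2, where 19.2% and 20.6% of all 11588 genes at this level were. RPLP0, RPL3 and RPS2 led with 3273 ± 363, 2984 ± 213 and 2968 ± 258 CPM. Translation factors held 2.52% ± 0.251, and eef2b, the translocation factor, had 5086, 4173, 6045, 5087 and 6694 CPM.

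The 13 protein genes of the mitochondrial genome held 4.93, 5.84, 5.89, 6.26 and 5.16% of counts in pools 1 to 5. They were lowest in pool 1 for 11 of the 13 genes, as were 26.3% of all genes at this level. Nuclear genes of the respiratory chain and its carriers held 2.44% ± 0.190, led by SLC25A5 and the ATP synthase subunit ATP5F1B (2298 ± 352 CPM). These nuclear genes were not low in pool 1. Among 110 at or above 1 CPM, 49 were highest in pool 1 and 47 in pool 3, against 19.2% and 14.2% of all genes. Only 2 were lowest in pool 1 and 59 were lowest in pool 2, against 26.3% and 20.6% of all genes. Tricarboxylic acid cycle genes held 0.538% ± 0.0214, highest in pool 3 at 0.575%.

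Regulators were counted at far lower levels than the proteins the liver exports. All 54 genes of the list of liver transcription factors and nuclear receptors together held 0.178% ± 0.0116 of counts, and 49 had a mean of at least 1 CPM. The highest was CEBPD, a leucine-zipper factor of the acute response, at 336, 176, 249, 199 and 372 CPM. HNF4A, the central factor of hepatocyte identity, had 101, 96.5, 115, 94.2 and 125 CPM and a CV of 12.5%. KLF15, a factor of amino acid and glucose metabolism, stood at 116 ± 23.1 CPM, NFE2L2, the antioxidant factor, at 96.2 ± 14.0, and PROX1, needed for liver growth in the mouse embryo, at 77.2, 73.8, 92.4, 43.1 and 92.0 CPM. The bile acid receptor NR1H4 averaged 41.4 ± 11.7 CPM and the pregnane receptor NR1I2 28.3 ± 8.97. Less abundant were FOXA2, a pioneer factor of endoderm, at 18.8 ± 6.37 CPM, the glucocorticoid receptor NR3C1 at 20.4 ± 2.46 and hhex, an early factor of the liver bud, at 5.48 ± 2.32. The factor gene onecutl had 61.5, 47.2, 88.8, 26.2 and 110.2 CPM and was lowest in pool 4, as were PROX1, FOXA2 and FOXA1 (35.7, 45.6, 41.1, 23.4 and 32.1 CPM). The list as a whole did not share this. Among its 49 genes at or above 1 CPM, 12 were lowest and 12 highest in pool 4, against 19.5% and 22.9% of all genes.

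Several functions known from adult or embryonic tissue were hardly counted. Vitellogenins, the egg yolk precursors made by the liver of adult females, held 0.000350% of counts, and the highest of them, vtg7, had 10.2, 3.64, 0.320, 1.11 and 0.605 CPM. Globins held 0.0126% of counts. Cell division genes, 42 in all, held 0.0143%, with PCNA, the replication clamp, at 16.7, 19.6, 21.4, 21.1 and 14.2 CPM and CCND1, a cyclin of the first growth phase, at 23.1 ± 3.17 CPM. Of the 24 cell division genes at or above 1 CPM, 12 were highest in pool 3, against 14.2% of all genes, and 13 lowest in pool 5, against 16.4%.

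Zebrafish kept many gene pairs from a genome duplication in the ancestor of teleost fish. By names ending in a lower-case a and b, each borne by 1 gene, 50 pairs were found. Only pairs with a count for both copies and a mean of at least 100 CPM for the higher copy were taken. The numbers below therefore describe these pairs and not duplicates at large. Names alone do not show that 2 genes are duplicates, and near-identical copies can share reads. In 34 pairs the major copy held over 90% of the counts of the pair, in 1 pair it held under 60%, and in 24 pairs it was the b copy. Of the apoa1 pair, apoa1b held 99.8% ± 0.357 (SD, n = 5). Of the fabp10 pair, fabp10b had a mean of 0.175 CPM beside 15224 for fabp10a. Also one-sided were pnp4b of the purine phosphorylase pair (1965 ± 128 CPM beside 0.116 for pnp4a), oxct1b of a ketone-using transferase (1685 ± 66.0 beside 0.675) and fbp1b of fructose bisphosphatase (1521 ± 94.0 beside 9.58). Glutamate dehydrogenase counts were 93.0% from glud1b. The antiplasmin pair was shared most evenly among the 10 pairs with the most counts, with serpinf2b at 60.3% ± 2.04. The pair under 60% was igf2, with the growth factor gene igf2b at 57.2% ± 3.51. The apoa1 pair was at its least one-sided in pool 4, where apoa1b held 99.1%.

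The 5 pools were close for most genes and far apart for some. The median CV over pools was 12.5% among the 5093 genes averaging 10 CPM or more, and the 10th and 90th percentiles were 6.11% and 30.0%. Counting error alone would give a median of 3.28%. The median was lower at higher levels, at 17.0% for genes of 1 CPM or more, 10.4% at 100 and 9.41% at 1000 CPM or more. The CV exceeded 50% for 185 genes and 100% for 36, and was under 5% for 266. The common biological coefficient of variation of edgeR, the spread beyond counting error, was 24.3% over 12705 genes. It is 1 value fitted to all of these genes, a wider set with lower counts, and is not comparable with the median CV. Gene by gene, the median was 20.8% by edgeR and 15.5% by DESeq2.

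**Figure D4:**
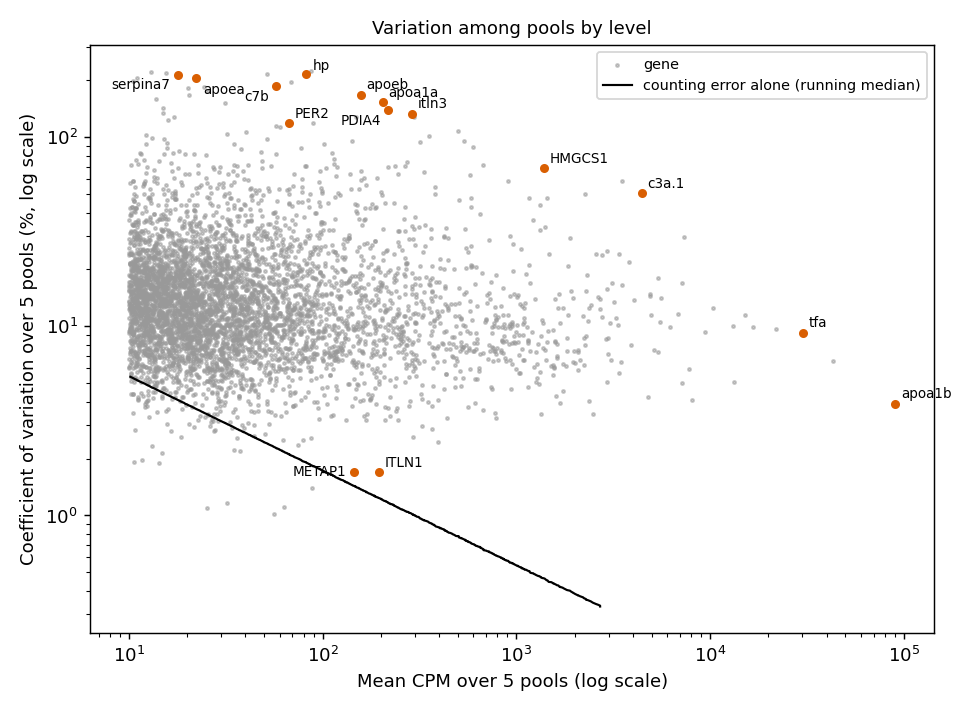
Coefficient of variation over the 5 pools in percent against mean CPM, both on log scales, for the 5093 genes averaging 10 CPM or more. Grey points are genes, the line is the running median of the spread that counting alone gives, and orange points are a selection of genes named in the text, with METAP1 at 1.69% and hp at 216%.

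The 10 steadiest genes at 100 CPM or more had CVs of 1.69% to 3.21%. METAP1, which removes the first methionine of new proteins, had 149, 142, 146, 144 and 146 CPM in pools 1 to 5. ITLN1 (ENSDARG00000095082), a lectin relative, had 193, 196, 199.9, 199.5 and 193 CPM. Without scaling factors the 2 genes shared a CV of 1.69%, where counting alone gives 1.43% for METAP1 and 1.23% for ITLN1. They were picked as the steadiest of 949 genes, and their CVs under other scalings were not computed. The sulfotransferase sult2st2 (CV 2.45%), dihydrolipoamide dehydrogenase DLD (2.60%) and the respiratory subunit UQCRC2 (3.20%) were also among the 10 steadiest, as were the translation genes GSPT1 and EIF1.

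For 339 of the 5093 genes, 6.66%, a single pool stood apart, its gap to the nearest other pool taking up most of the range (Dixon's ratio for 5 values, above a bound that chance passes in about 1 in 20 groups). On log2(CPM + 1) the share was 5.40%, near that rate. The odd pool was high for 256 genes and low for 83, but for 152 and 123 on the log2 scale. A gene could pass the mean of 10 CPM through 1 high pool alone. ACOD1 did so, with 77.2 CPM in pool 1 and at most 0.329 elsewhere. The filter thus favours high pools in these counts and among the genes with the largest CV. Of the 15 genes with the largest CV, 9 were highest in pool 1, 4 in pool 4 and 2 in pool 2. High genes numbered 98 in pool 1, 70 in pool 2, 19 in pool 3, 51 in pool 4 and 18 in pool 5. On the log2 scale they numbered 59, 46, 13, 24 and 10. Among the 185 genes with a CV over 50%, 49 were highest in pool 1, 39 in pool 2, 29 in pool 3, 50 in pool 4 and 18 in pool 5. Of all 11588 genes at 1 CPM or more, 19.2, 24.7, 14.2, 22.9 and 19% were highest in pools 1 to 5. The groups of genes described next were put together after these values were seen, so their counts describe the pools and test nothing. The planned lists by function and the marker lists, used above and below, were chosen with earlier results of these data known. Their counts test nothing either.

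Pool 1 was high in a number of transcripts of the acute phase and of innate defence. The planned acute phase list, which holds neither hp nor the complement genes, showed little of this. It held 0.408, 0.306, 0.366, 0.333 and 0.356% of counts in pools 1 to 5, and of its 7 genes at or above 1 CPM, 3 were highest in pool 1 and 4 in pool 2, against 19.2% and 24.7% of all 11588 genes. One of the 7 matched the list by spelling alone. Single genes differed far more. Haptoglobin (hp), the plasma protein that binds free haemoglobin, had 399.6, 8.91, 0.827, 0.388 and 0.378 CPM in pools 1 to 5. The complement gene c7b, of the membrane attack complex, had 248, 16.7, 5.58, 5.38 and 11.4 CPM, and the lectin gene itln3 had 961, 289, 84.5, 65.5 and 52.2 CPM. For each of them pool 2 came second, far below pool 1. The lysozyme gene lygl1 had 106, 12.4, 3.50, 2.39 and 4.46 CPM in the same order of pools 1 and 2. The haemopexin gene hpxb, a haem carrier, had 1429, 495, 214, 221 and 317 CPM and the chemotactic factor LECT2 (ENSDARG00000033227) had 961, 393, 147, 131 and 132 CPM. Both followed the same order, with pool 1 first and pool 2 second. The metalloreductase STEAP4 had 264, 74.9, 74.6, 77.0 and 85.5 CPM, high in pool 1 alone. The pentraxin gene apcs, a plasma lectin, had 329.6, 240.2, 22.8, 29.0 and 92.5 CPM and was high in pools 1 and 2, while hamp, the iron hormone hepcidin, had 491, 268, 208, 317 and 222 CPM, with pool 1 first and pool 4 second.

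Among abundant members, c3a.1 had 8402, 4183, 3154, 2999 and 3508 CPM, factor B (cfb), which activates C3 by the alternative route, 2232, 1396, 1164, 1192 and 1082, and ceruloplasmin (CP), the copper protein of plasma, 2068, 1036, 1353, 1089.7 and 1098. Pool 1 was the highest for all 3, as it was for c9, which had 4627, 3863, 2835, 2813 and 2843 CPM. ACOD1, which makes itaconate and is best known from macrophages in mammals, had 77.2, 0.247, 0.107, 0.329 and 0.328 CPM. MFAP4 (ENSDARG00000090557), one of several copies of a gene used as a macrophage marker in zebrafish, had 309, 10.9, 7.23, 2.99 and 12.4 CPM. Of 7 macrophage markers at or above 1 CPM, 6 were highest in pool 1, where 19.2% of all 11588 genes were. Markers could pass that level through pool 1 itself. Apart from MFAP4 and cd68 they were low, the receptor gene marco having 5.18, 4.52, 1.57, 2.42 and 3.66 CPM, and IRF8 averaged 0.300 and csf1rb 0.321 CPM. Neutrophil markers summed to 85.8, 71.0, 73.6, 65.6 and 65.1 CPM, mostly from il6r. Of 7 matched neutrophil markers only 3 averaged 1 CPM or more, so the sum says little of the others or of neutrophils. The part of macrophages and neutrophils in the values of pool 1 was not tested. In the group of 26 acute phase and innate genes at or above 1 CPM that was put together with the values known, 22 were highest in pool 1. The other 4 were FGG, crp3 and STAT3, highest in pool 2, and CEBPB, highest in pool 4. The pentraxin gene crp3 had 478, 506, 259.7, 261 and 319 CPM, and the signal carrier STAT3 had 10.3, 10.5, 9.05, 9.59 and 9.79 CPM with all 5 pools close together. CEBPB, a transcription factor of the acute phase response in mammals, had 94.2, 69.7, 70.0, 106 and 74.9 CPM. SOCS3 (ENSDARG00000026611), the feedback inhibitor of the STAT3 route, had 29.4, 26.0, 21.8, 13.4 and 21.6 CPM, and serpina1 had 8544, 7632, 8192, 8039.8 and 8204 CPM, both highest in pool 1 by a small margin.

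Pool 1 also stood out for chaperones of the endoplasmic reticulum, where secreted proteins fold. The list of the endoplasmic reticulum and secretory pathway held 1.32, 0.726, 0.948, 0.785 and 0.775% of counts in pools 1 to 5. Of its 70 genes at or above 1 CPM, 38 were highest in pool 1 and 21 in pool 3, against 19.2% and 14.2% of all genes. HSPA5, the main chaperone of this compartment, had 1518, 249, 544, 254 and 424 CPM. Its partner HSP90B1 had 1466, 193, 355, 217 and 272 CPM and the disulfide isomerase PDIA4 756, 62.6, 112, 76.7 and 80.0. For these 3 genes pool 1 was the highest by more than 2-fold, and pool 3 was second. In a group of 15 chaperone genes chosen with the values known, 13 were highest in pool 1 and 2 in pool 3, and the sums were 5557, 1332, 2188, 1492 and 1643 CPM. HYOU1 (481, 113, 207, 157 and 133 CPM) and MANF (96.5, 22.0, 30.7, 18.7 and 22.7 CPM) followed, whereas the lectin chaperone CANX had 335, 274, 394, 323 and 321 CPM and did not set pool 1 apart. XBP1, a transcription factor of the folding response, had 432, 406, 486, 324 and 500.5 CPM with no pool apart. The cytosolic chaperone HSPA8 (ENSDARG00000068992) averaged 3485 ± 225 CPM. A lean to pool 1 was not particular to the secretory list. Pool 1 was also highest for 48 of 88 proteasome and ubiquitin genes and 58 of 82 ribosomal protein genes at or above 1 CPM.

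Pools 3 and 4 shared a high level of the cholesterol pathway. HMGCS1, which makes HMG-CoA, had 771, 672, 2860.2, 1891 and 793 CPM in pools 1 to 5. Later steps were alike. MSMO1 had 358, 343, 1382, 992 and 313 CPM, CYP51A1 354, 294, 1119.6, 805 and 331, squalene epoxidase SQLE (ENSDARG00000079946) 155, 106, 507, 429 and 130.5, and squalene synthase FDFT1 23.2, 20.8, 108, 58.2 and 33.1. In each of them pool 3 was first, pool 4 second, and the other 3 pools lower. The planned list of cholesterol synthesis and bile acids had 36 genes at or above 1 CPM, and in 24 of them pools 3 and 4 were above the other 3, against 9.17% of all genes. In a group of 20 genes of sterol synthesis alone, chosen with the values known, 19 had pools 3 and 4 above the other 3. In the same group 17 were lowest in pool 2, against 20.6% of all genes. The group summed to 3273, 2674, 10458, 7695 and 3244 CPM.

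By their sum, bile acid enzymes and transporters did not follow the cholesterol pathway. They summed to 2519.6, 2816, 2621, 2387 and 2822 CPM. This group was chosen with the values known. Of its 8 genes at or above 1 CPM, 3 were highest in pool 3, against 14.2% of all genes. In 2 of the 8, pools 3 and 4 were above the other 3, against 9.17% of all genes. CYP7A1, the rate-limiting enzyme of bile acid synthesis, had 164, 281, 264, 198 and 416 CPM and was highest in pool 5. CYP8B1 (ENSDARG00000053068), which sets the type of bile acid, had 343, 408, 411, 293 and 463 CPM, and the export pump ABCB11 had 844, 1015, 773, 780.4 and 847 CPM and was highest in pool 2.

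Pool 2 differed in single genes of hormone carriage and energy metabolism. The serpin gene serpina7, which encodes thyroxine-binding globulin in mammals, had 1.02, 86.3, 0.774, 0.687 and 0.605 CPM, at about 1 CPM or less in each pool other than pool 2. LPIN1, a phosphatidate phosphatase of fat synthesis, had 225, 848, 159, 134 and 225 CPM. The inhibitor of fat breakdown g0s2 had 87.9, 14.8, 77.9, 69.5 and 86.9 CPM and was low only in pool 2. ALAS1, the first enzyme of haem synthesis, had 292, 135, 322, 295 and 409 CPM and was lowest in pool 2, while the cadherin gene FAT3 (ENSDARG00000087709) had 7.84, 51.1, 6.64, 9.02 and 5.27 CPM. VDR (ENSDARG00000070721), the vitamin D receptor, had 9.41, 20.3, 2.99, 5.89 and 3.58 CPM, and PPARA (ENSDARG00000054323), a receptor for fatty acids, had 1.02, 3.71, 0.667, 1.37 and 1.29. Pool 2 was also the pool with the most exocrine pancreas transcripts, 137 CPM of marker genes. Of 18 matched markers, 8 averaged 1 CPM or more, and 7 of these were highest in pool 2, against 24.7% of all genes. Markers could pass that level through pool 2 itself, so the count describes the pool only. The part of exocrine pancreas transcripts in the differences of pool 2 was not tested.

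Pool 4 was high in some apolipoprotein and lipid transport genes. Of 21 genes of the planned apolipoprotein list at or above 1 CPM, 8 were highest in pool 4, against 22.9% of all genes. Over all 21, the median difference from the gene's own median was 0.10 log2 units in pool 4. The apolipoprotein E gene apoeb had 29.2, 20.5, 34.2, 629 and 73.1 CPM in pools 1 to 5, and its pair apoea had 0.384, 0.283, 1.55, 104 and 4.94 CPM. The minor copy apoa1a had 47.9, 43.1, 52.2, 766 and 117 CPM, high in pool 4, while apoa1b in that pool was 87691 CPM, within the range of the others. The cholesterol exporter gene abca1b had 3.71, 1.80, 2.11, 85.9 and 7.21 CPM. In all 4 of these genes pool 4 was first by more than 6-fold and pool 5 was second. In a group of 11 genes of lipoprotein assembly and lipid transport chosen with the values known, 7 were highest in pool 4. MTTP, the transfer protein that loads lipid on apolipoprotein B, had 305, 307, 331, 292 and 289 CPM and did not follow. Another apolipoprotein B gene, APOB, had 1714, 2898, 2795, 3309 and 2236 CPM, and apoa4b.1 had 2258, 2398, 3313, 4046 and 2736 CPM. The copy apoa4b.2 had 0.992, 158, 1.28, 103 and 39.8 CPM, high in pools 2 and 4. By its sum the intestinal marker list, which holds the apoa4b genes, was highest in pool 4, and so was the epidermal list. Most intestinal markers did not follow. Among 10 at or above 1 CPM, 2 were highest in pool 4 and 6 in pool 2, against 22.9% and 24.7% of all genes. Among 7 epidermal markers at or above 1 CPM, 5 were highest in pool 4, against 22.9% of all genes. Markers could pass that level through pool 4 itself. The part of gut and epidermis in these differences was not tested. SLC43A2 (ENSDARG00000061120), an amino acid carrier, was another gene high in pool 4, at 2.59, 6.19, 3.20, 81.2 and 8.75 CPM. Lysosome genes held 0.200, 0.205, 0.192, 0.270 and 0.195% of counts, highest in pool 4, and their leading member, the cathepsin gene ctsla, had 445, 362, 317, 675 and 364 CPM.

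Other genes were low in pool 4. FKBP5, a co-chaperone of steroid receptors, had 176, 241, 236, 53.8 and 239.8 CPM and tsc22d3, a leucine zipper gene, had 88.0, 83.1, 108, 43.9 and 107 CPM. The stress genes CHAC1, which degrades glutathione, and TRIB3, a pseudokinase, had 700.0, 527, 734, 125 and 826 and 36.9, 46.5, 52.0, 9.89 and 50.4 CPM. The myc family gene mych had 46.9, 28.2, 46.8, 6.27 and 114 CPM, lowest in pool 4 and highest in pool 5. PCK1, given above, was low in the same pool.

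Clock genes split the pools in another way. The light-induced period gene PER2 had 11.4, 139, 13.3, 169.6 and 4.09 CPM in pools 1 to 5, more than 10-fold higher in pools 2 and 4 than in any of the other 3. The transcription factor gene tefa had 126, 313, 146, 313 and 106 CPM and the photolyase cry5 had 30.9, 65.8, 24.4, 70.0 and 16.2 CPM, with the same pools 2 and 4 high. Of 25 clock genes at or above 1 CPM, 14 had pools 2 and 4 above the other 3, against 19.2% of all genes. All 5 genes of the light-responsive group did, which was put together after the values were seen. The repressor gene NR1D1, an output of the clock loop, had 209, 209, 244, 133 and 278 CPM, lowest in pool 4, and nr1d2a had 35.5, 22.7, 44.6, 8.40 and 56.6 CPM with the same low pool. NR1D2 (ENSDARG00000009594), named for the same repressor, had 11.5, 34.1, 26.5, 45.4 and 13.1 CPM, with pools 2 and 4 high. A second period gene, PER1 (ENSDARG00000012499), had 36.3, 70.3, 72.8, 70.1 and 74.2 CPM and was low in pool 1 only. Labels give 1 dissection time for all pools.

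**Figure D5:**
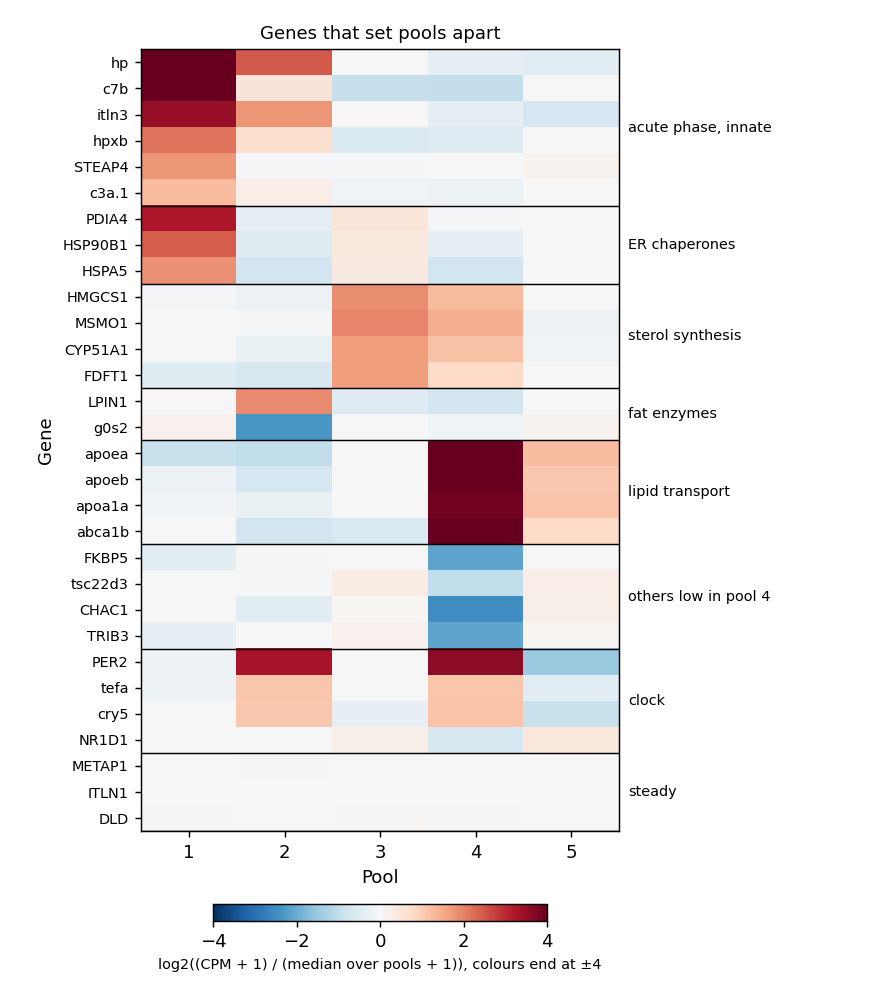
Level of genes named in the text (rows, grouped by function) in each pool (columns) as log2 of CPM + 1 over the median of the 5 pools, red for above and blue for below, with colours ending at 4 log2 units either way. Acute phase and chaperone genes are red in pool 1, sterol genes in pools 3 and 4, lipid transport genes in pool 4 and PER2, tefa and cry5 in pools 2 and 4, while METAP1, ITLN1 and DLD stay pale.

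Pools 3 and 5 had the fewest genes apart, 19 and 18 high. In pool 5 the embryonic globin gene hbae3 was low at 43.8 CPM, against 89.8 to 138 in the other pools, and each of the 5 erythrocyte markers at or above 1 CPM was lowest there, against 16.4% of all genes. Endothelial markers were highest in pool 5 for 8 of 14 genes, against 19% of all genes. The insulin-like growth factor gene igf2b had 132, 201, 185, 110.0 and 221 CPM, highest in pool 5 and lowest in pool 4. Beyond named pathways, the clone-named gene si:dkey-153m14.1 came next after c3a.1 in level among genes with a CV over 50%, at 5501, 1990.0, 1304, 5813 and 2925 CPM, high in pools 1 and 4. It was chosen after its values were seen, as were VDR, FDFT1, CYP51A1, SQLE, LECT2, mych, igf2b and other genes outside the naming rule.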

How the data were processed

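Counts were the authors' deposited whole-number counts per Ensembl gene, 1 file per library, on genome build GRCz10. Reads had been handled with FastQC 0.11.5 and Trimmomatic 0.36, per the submitters' processing notes. The aligner, counter and annotation release are not given in the sources used here. Per the labels, 100 ng of poly(A) RNA with an integrity number above 7 was amplified for 12 cycles. 2 library kits are named, TruSeq V2 and a directional one, so whether counting used strand is not known and overlapping genes cannot be told apart.

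CPM were computed here from all gene counts of a library, without further scaling. TMM and DESeq2 size factors were alternatives. Symbols came from a name table for 26269 identifiers (81.8%) and are printed as it gives them. The dispersion came from edgeR 4.0.16 after filterByExpr, and DESeq2 1.42.0 gave another estimate. The scripts for dispersion and for pools standing apart were tested on simulated data. With 1 group of 5 pools there was no comparison of groups and no test was run. Intervals and limits at 0 cover counting error only, since reads carried no molecular identifiers.

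Named genes were the 30 with the highest mean, the 3 highest of each list and of each marker list, the 15 most and 10 least variable, the 5 per pool and direction with the largest gap, the 10 largest pairs, and AS3MT. Members of the lists of transcription factors and clock genes could also be named. Some genes that this rule takes are not reported here. Of 894 list entries, 106 matched no identifier. All members, lists and groups were chosen with earlier results of these data known, and 6 groups were put together after the values by pool were seen.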

Additional observations from a re-analysis of the deposited data

Results flagged for a closer look

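In each value below, 1 of the 5 pools lay far from the other 4 by Dixon's ratio. Chance reaches this in about 1 in 20 groups, but that rate does not apply here, since many of these genes were named for a large spread or gap. Apart from running numbers in titles and library names the labels of the pools do not differ, and the part of any technical difference in these values was not tested.

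Most of them concern pool 1. Acute phase and innate genes were high there, with hp at 399.6 CPM (median of the other pools 0.608), c7b at 248 (8.48), itln3 at 961 (74.99), ACOD1 at 77.2 (0.288), hpxb at 1429 (269), STEAP4 at 263.5 (75.9), cfb at 2232 (1178), c3a.1 at 8402 (3331) and lygl1 at 106 (3.98). MFAP4 (ENSDARG00000090557) was at 309 CPM (9.08), which carried the macrophage markers to 444 CPM (121). Chaperones of the endoplasmic reticulum were high too, with PDIA4 at 756 CPM (78.4), HSP90B1 at 1466 (244), HSPA5 at 1518 (339), HYOU1 at 481 (145) and MANF at 96.5 (22.4). In the same pool the endocrine pancreas markers summed to 1.22 CPM (0.153). Low in pool 1 were the kidney and swim bladder markers at 286 CPM (366), PER1 (ENSDARG00000012499) at 36.3 CPM (71.6) and the share of the top 20 genes at 32.2% of counts (33.4%).

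Pool 2 was high for serpina7 at 86.3 CPM (0.730), LPIN1 at 848 (192), FAT3 (ENSDARG00000087709) at 51.1 (7.24), PPARA (ENSDARG00000054323) at 3.71 (1.16) and phase I enzymes at 2.73% of counts (2.42%). It was low for g0s2 at 14.8 CPM (82.4). Pool 3 was high for the tricarboxylic acid cycle at 0.575% of counts (0.529%).

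Pool 4 was high for apoea at 103.7 CPM (0.966), apoeb at 629 (31.7), apoa1a at 766 (50.1), abca1b at 85.9 (2.91) and SLC43A2 (ENSDARG00000061120) at 81.2 (4.69). The keratin gene krt4 was at 115 CPM (9.72), the epidermal markers at 227 CPM (53.6) and lysosome genes at 0.270% of counts (0.197%). Low in this pool was PCK1 at 1555 CPM (2514). Pool 5 was high for GAMT at 5945 CPM (4688) and ANXA4 at 799 (722).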

How the results depend on the processing

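No paired analysis was possible because no result comes from a test between groups. TMM factors (0.979 to 1.03) and DESeq2 size factors put the count of genes apart at 331 and 340. They did not change the highest or lowest pool of the 6 added groups. No reported mean level moved by more than its SD over pools, but factors this near 1 can hardly move a mean over pools. Leaving out 1 of 5 pools, or taking the median, cannot move a level that far. These settings could therefore not have given another outcome. Values by pool and CVs of the named genes were not compared between scalings. Leaving out the mitochondrial genome put the top gene at 9.60% and the top 100 at 52.6% of counts, plasma protein lists at 32.2% and genes in no list at 30.6%. Lists widened after seeing the data put the last 2 at 31.3% and 26.9%. The median CV was 17.0% at 1 CPM and 10.4% at 100 CPM, and 11.3% to 12.98% with 1 pool left out, lowest without pool 1. The common biological CV was 31.6% without a filter and 23.6% to 25.4% with 1 pool left out. The gene-wise median, a different measure, was 15.5% by DESeq2 and 20.8% by edgeR. Genes with 1 pool apart numbered 815 of 11588 at 1 CPM, 339 of 5093 at 10 CPM and 60 of 949 at 100 CPM. With 1 pool left out they numbered 270 to 376. They numbered 275 on the log2 scale. Those high in pool 1 numbered 98 of 5093 at 10 CPM, 59 on the log2 scale, 179 of 11588 at 1 CPM and 20 of 949 at 100 CPM. A gene can reach any of these levels through pool 1 itself. Ranking and shares per coding length were planned and not run, for want of lengths. With 5 pools a difference between pools has no replicate of its own, and genes under 1 CPM rest on few counts.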
